A study of Mus musculus with 6 samples.

Results

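Strong distal peaks are the brightest open chromatin regions far from any annotated gene start in lineage-negative bone marrow cells of the mouse. A peak was included when its nearest transcription start site in the deposited annotation lay more than 5000 bp and at most 200000 bp away and its mean level over the 6 libraries was at least 20 CPM (read count divided by the library's total peak reads and scaled to 1000000). This rule gave 2528 of 109859 peaks, which is 2.30% of all peaks and 3.46% of the 72995 peaks in the same range of distances. The peaks were thus chosen by their mean CPM over all 6 libraries, and that level is no finding. All 2528 were kept by the filter on low counts and entered the tests.

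ATAC-seq, in which the Tn5 transposase places sequencing adapters into open DNA, was run on cells from 6 mice. Of these, 3 were wildtype, and in the other 3 the Polycomb protein Mel18 (encoded by Pcgf2) had been removed conditionally in the hematopoietic system. Both groups were lineage-negative cells, the bone marrow left after mature blood cells are removed, and the question was whether loss of Mel18 alters accessibility. No source used here gives the Cre driver or the age and sex of the mice. The fraction is a mixture, so a smaller share of 1 cell type and a less open site in each cell cannot be told apart.

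Distal open regions are often enhancers, stretches of DNA where transcription factors bind and from which they act on a promoter over a distance. Blood progenitors use many such elements around the genes of their lineage regulators. Others are insulators, or promoters of transcripts that an annotation does not list. Polycomb repressive complex 1 (PRC1), of which Mel18 is a subunit, is best known for holding developmental genes silent.

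Against the 70467 weaker peaks at the same distances, the strong distal peaks were wide, with a median width of 427 bp against 187 bp. Width goes with the level that the rule used. The median distance to the nearest start site was 23137 bp, and 1413 peaks (55.9%) lay downstream of it. Introns held 1021 (40.4%), exons held 159 (6.29%), and 1348 (53.3%) lay between genes. Chromosome X held 28 (1.11%), against 2.25% of all peaks. A total of 1931 genes were nearest to at least 1 strong distal peak, and 1505 of them to exactly 1.

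Some strong distal peaks lay at or beside a gene start that the deposited annotation had not used. Windows from 250 bases before to 50 bases after RefSeq starts (GRCm38.p6, the assembly behind mm10) were compared with 2448 of the peaks, the other 80 not being assessed. Of these, 159 (6.50%) overlapped a window, 69 of a protein-coding gene and 90 of a long noncoding RNA. In 35 cases the RefSeq gene was the gene named in the deposited annotation, at another start. The share was 26.5% among 34 peaks of at least 100 CPM (9 peaks) and 3.08% among 909 peaks under 25 CPM (28 peaks). The 200 bases before the RefSeq start are printed for 4 of the strongest peaks that hold the start itself, as examples of bright "distal" sites. They are not the 4 strongest of the 159, since the overlapping peak named for Zfp239 was brighter than that of Hdac4. Also printed are the 3 strongest start-holding peaks with the PU.1-type ETS motif in that stretch. Sequences are from RefSeq GRCm38.p6, 5′ to 3′ on the strand of the gene, and capitals mark the motifs searched on both strands: GAGGAAG for PU.1-type ETS factors, AGATAA for zinc-finger factors of the GATA family, TGTGGTT for RUNX factors, TGANTCA for AP-1, TTGCNNAA for C/EBP factors and CAGCTG for the E-box, with the longer IRF and CTCF core motifs.

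The 7 stretches come from peaks whose nearest annotated gene, in the order printed, was Wnt7b, Hdac4, Mir7012, Garnl3, Gm17359, Rassf5 and Ube2v1.
D130051D11Rik, chr15:85634396-85634595, plus strand: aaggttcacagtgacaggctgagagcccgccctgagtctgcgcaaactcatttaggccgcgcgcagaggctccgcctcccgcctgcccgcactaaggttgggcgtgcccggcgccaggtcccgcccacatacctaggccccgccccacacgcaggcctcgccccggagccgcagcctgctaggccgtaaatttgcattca
Hdac4, chr1:92180342-92180541, minus strand: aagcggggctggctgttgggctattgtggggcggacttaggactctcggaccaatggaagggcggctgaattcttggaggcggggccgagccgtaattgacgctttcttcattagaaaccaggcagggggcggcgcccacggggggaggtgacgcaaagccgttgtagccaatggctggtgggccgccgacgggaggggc
Gatad2b, chr3:90292981-90293180, plus strand: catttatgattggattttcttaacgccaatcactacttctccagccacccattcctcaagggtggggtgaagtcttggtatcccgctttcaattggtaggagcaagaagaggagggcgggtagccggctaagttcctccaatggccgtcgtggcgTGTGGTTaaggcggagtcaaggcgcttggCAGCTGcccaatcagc
Garnl3, chr2:33130620-33130819, minus strand: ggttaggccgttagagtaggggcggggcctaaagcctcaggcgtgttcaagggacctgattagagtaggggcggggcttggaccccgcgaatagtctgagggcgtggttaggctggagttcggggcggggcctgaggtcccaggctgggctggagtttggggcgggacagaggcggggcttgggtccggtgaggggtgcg
6430573P05Rik, chr3:79287224-79287423, plus strand: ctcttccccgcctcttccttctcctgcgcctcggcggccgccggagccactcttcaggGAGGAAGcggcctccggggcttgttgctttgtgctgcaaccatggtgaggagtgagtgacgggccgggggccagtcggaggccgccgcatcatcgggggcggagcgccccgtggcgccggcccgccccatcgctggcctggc
Rassf5, chr1:131200186-131200385, minus strand: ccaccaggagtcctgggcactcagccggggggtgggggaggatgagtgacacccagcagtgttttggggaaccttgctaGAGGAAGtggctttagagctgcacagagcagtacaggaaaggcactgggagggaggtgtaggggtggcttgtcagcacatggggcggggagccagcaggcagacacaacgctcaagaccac
Gm31619, chr2:167589484-167589683, minus strand: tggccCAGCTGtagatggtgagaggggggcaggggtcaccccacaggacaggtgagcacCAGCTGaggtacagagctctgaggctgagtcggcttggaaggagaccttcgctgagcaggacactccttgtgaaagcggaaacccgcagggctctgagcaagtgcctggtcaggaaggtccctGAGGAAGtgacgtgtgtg

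The D130051D11Rik stretch, under the peak named for Wnt7b, had a GC content of 67.5% with 18 CpG sites and none of the motifs. The Hdac4 stretch (64.5% GC, 16 CpG sites) and the Garnl3 stretch (67% GC, 13 CpG sites) also held none. The Gatad2b stretch held 1 RUNX motif and 1 E-box, and Gatad2b, which encodes a subunit of the NuRD remodelling complex, was not the gene named in the deposited annotation. The PU.1-type motif stood in the stretches of 6430573P05Rik, Rassf5 and Gm31619, and the last also held 2 E-boxes. Over the full windows, 23.2% of the 190 under strong distal peaks held the PU.1-type motif, against 13.6% of all 32851 windows. The AP-1 motif stood in 12.1% against 7.81%, C/EBP in 15.3% against 10.8%, E-box in 17.4% against 16.3% and RUNX in 4.74% against 5.27%. GATA was found in 3.68% against 11.2%, IRF in 3.16% against 3.44%, and the CTCF core in 0.526% against 0.557%. These shares are a description. The windows under strong distal peaks had a median GC content of 55.7%, against 52.7% for all windows.

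Peak reads ran from 12000808 to 13769335 in the wildtype libraries and from 14487908 to 16709921 in the knockout libraries. No peak had the Pcgf2 start site as its nearest, and no strong distal peak lay within Pcgf2, so the deletion could not be checked on these peaks. The peak closest to Pcgf2 (chr11:97702450-97702803) stood at 17.5, 19.2 and 13.3 CPM in wildtype and 17.04, 19.8 and 16.3 CPM in knockout libraries, with overlapping groups. Reads in peaks nearest to erythroid genes summed to 1153, 1212 and 1662 CPM in wildtype and 1431, 1193 and 1099 CPM in knockout libraries. Those of myeloid genes summed to 1577, 1654 and 1144 CPM and to 1514, 1526 and 1512 CPM. Wildtype library 3 was thus the highest of the 6 on the first and the lowest on the second.

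Wildtype library 3 also stood apart at the strong distal peaks. Each library was set against the mean of the other 5 at every peak, on the log2 CPM scale. The median over strong distal peaks was 0.24 and 0.19 in wildtype libraries 1 and 2, -0.30 in wildtype library 3, and -0.05, -0.06 and -0.03 in the knockout libraries. At the 7477 peaks of the same level within 1 kb of a start site, called strong promoter peaks here, wildtype library 3 was above the others by a median of 0.19. It was the lowest of the 6 libraries at 1392 strong distal peaks (55.1%), against 5.78% of strong promoter peaks, and the highest at 440 (17.4%). At 951 strong distal peaks (37.6%) it was more than 0.5 log2 units below the other libraries, and at 145 (5.74%) more than 0.5 above. The 70467 weaker peaks at the same distances shared part of this. There the median of wildtype library 3 was -0.14, against -0.01 to 0.08 in the other libraries. It was more than 0.5 below at 30.3% of them and more than 0.5 above at 19.2%. The main counts and medians that follow are therefore given with and without this library. Its place beside the marker sums was not tested.

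The same held at matched levels. Among peaks of 20 to 25 CPM, the mean log2 CPM of 941 strong distal peaks minus that of 961 strong promoter peaks was 0.05, 0.12 and -0.45 in wildtype libraries 1, 2 and 3. In the knockout libraries it was 0.04, 0.03 and 0.05. Between 60 and 100 CPM wildtype library 3 stood at -0.21, against 0.01 to 0.05 in the other 5. At 100 CPM and above all 6 libraries lay between -0.15 and -0.11. The gap of this library was therefore smallest at the brightest distal peaks.

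Strong distal peaks held 8.95%, 9.04% and 7.31% of peak reads in wildtype libraries 1, 2 and 3, and 8.36%, 8.33% and 8.46% in knockout libraries 1, 2 and 3. The means were 8.43% ± 0.973 (SD, n = 3) and 8.39% ± 0.0690 (SD, n = 3), a difference of -0.05 percentage points that is smaller than the spread between wildtype libraries. Leaving out wildtype library 3, the wildtype mean was 8.995%, above each knockout library. Strong promoter peaks held 45.0%, 44.1% and 46.1% of reads in wildtype and 41.2%, 41.3% and 40.8% in knockout libraries. The mean log2 CPM of distal minus promoter peaks was -0.63, -0.59 and -1.06 in wildtype and -0.61, -0.62 and -0.59 in knockout libraries. Apart from wildtype library 3 the values of both genotypes lay within the same narrow range.

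**Figure D1:**
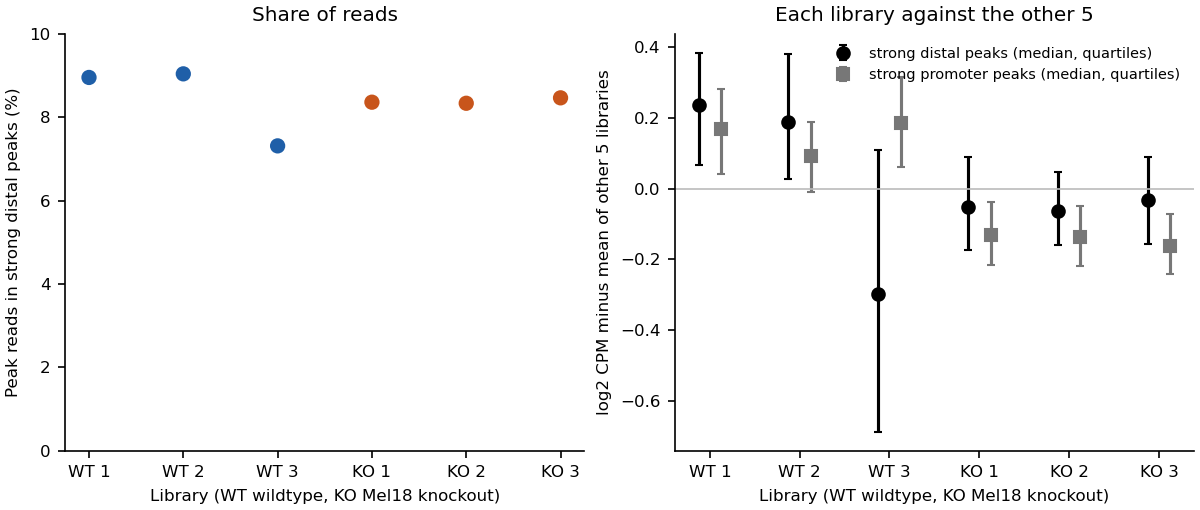
The left panel plots the percentage of each library's peak reads in the 2528 strong distal peaks, 1 point a library, and the right panel the median and quartiles over peaks of each library's log2 CPM minus the mean of the other 5, for strong distal (circles) and strong promoter peaks (squares). Wildtype library 3 has the lowest share (7.31%) and the only distal median far below 0 (-0.30), while its promoter median is 0.19.

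No single strong distal peak differed between genotypes at an adjusted p under 0.05 with all 6 libraries. The edgeR quasi-likelihood test with Benjamini-Hochberg adjustment over all peaks called 0 higher and 0 lower in knockout (0% of all peaks in each direction), the smallest adjusted p being 0.0582. DESeq2's Wald test called 0 of the 579 strong distal peaks to which it gave an adjusted p, and made no call for the others. DESeq2 size factors in edgeR gave 19 lower (0.752%, against 0.424% of all peaks) and limma-voom 10 lower (0.396%, against 0.253%). At an unadjusted p under 0.05, 319 strong distal peaks were below wildtype and 17 above it, or 12.6% and 0.672%, against 5.97% lower and 3.10% higher over all peaks. The 3 knockout libraries lay below the 3 wildtype libraries at 338 strong distal peaks (13.4%, against 8.01% of all peaks). They lay above them at 33 (1.31%, against 7.62%). For strong promoter peaks the share with knockout below was 55.3%. In the authors' deposited table, no strong distal peak passed 0.05 either, with a smallest adjusted p of 0.200.

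The median log2 fold change of knockout over wildtype was -0.11 over the strong distal peaks, -0.25 over the strong promoter peaks and 0.02 over all peaks. Of the strong distal peaks 72.3% lay below 0, against 48.2% of all peaks and 93.6% of strong promoter peaks. The quartiles of the strong distal peaks were -0.23 and 0.02, and the whole range was -1.09 to 0.77. Changes beyond 0.5 log2 units were seen at 59 of them below and 10 above. Such changes were more common over all peaks, whose 6th and 90th percentiles were -0.52 and 0.52, against -0.40 and 0.14 for strong distal peaks. All peaks had a median level of 3.61 CPM, against 27.7 CPM for strong distal peaks, and lower counts give larger errors. The spreads are thus not compared at the same level. The direction of the median log2 fold change of strong distal peaks depended on the scaling. With library sizes alone, which move the median of all peaks from 0.02 to 0.14, it was 0.01. At an unadjusted p under 0.05, 101 strong distal peaks were then below (4%, against 2.72% of all peaks) and 73 above (2.89%, against 6.52%). With trended normalization, which removes any relation of each library to the mean level by a smooth curve, the median was 0.04. A difference between genotypes that peaks of the same level share is removed with it. The unadjusted counts were then 47 below (1.86%, against 3.28% of all peaks) and 100 above (3.96%, against 2.34%).

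The calls were more numerous in the fit that left out wildtype library 3. Its median log2 fold change was -0.20, close to the -0.22 that is the median of strong promoter peaks in the same fit, and 442 strong distal peaks were lower and 6 higher at an adjusted p under 0.05. These are 17.5% and 0.237% of the strong distal peaks, against 2.45% and 0.290% of all peaks. In 309 of the 442 (69.9%) wildtype library 3 lay below all 3 knockout libraries, and in 94 above all of them. Leaving out wildtype library 2 gave 28 lower calls (1.11%, against 0.485% of all peaks). A total of 18 peaks were called in both fits, 4.02% of the first list and 64.3% of the second. With trended normalization and without wildtype library 3, the median was -0.03. The calls were 28 lower and 7 higher (1.11% and 0.277%, against 0.0664% and 0.0401% of all peaks). The 2 fits that leave out wildtype library 3 share all of their wildtype libraries.

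**Figure D2:**
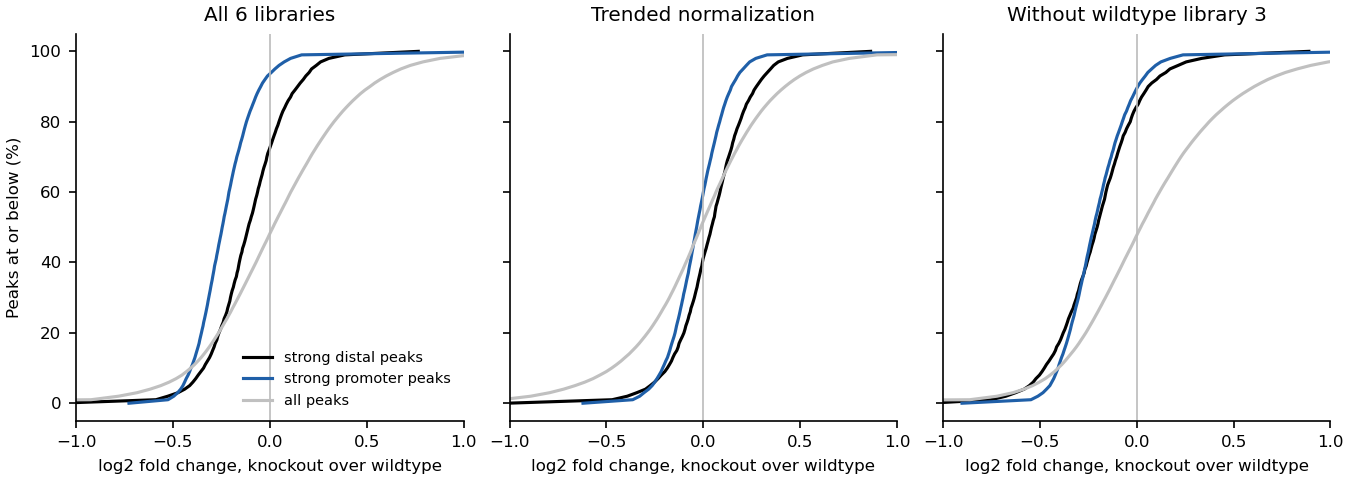
Each curve gives the percentage of peaks at or below a log2 fold change of knockout over wildtype, for strong distal peaks (black), strong promoter peaks (blue) and all peaks (grey), with all 6 libraries, with trended normalization, and without wildtype library 3. The distal median is -0.11, 0.04 and -0.20 in the 3 panels.

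The share at an unadjusted p under 0.05 and lower in knockout was larger at higher levels. It was 4.89% of the 941 strong distal peaks at 20 to 25 CPM, 24.3% of the 338 at 40 to 60 CPM, and 82.4% of the 34 at 100 CPM and above. Strong promoter peaks of the same levels stood at 14.3%, 55.3% and 88.4%. In the fit that leaves out wildtype library 3, the median log2 fold changes at 20 to 25 CPM were -0.16 for distal and -0.12 for promoter peaks. At 100 CPM and above they were -0.32 and -0.31. With trended normalization the medians of the distal peaks lay between 0.03 and 0.05 in all 6 level ranges, and those of promoter peaks between -0.08 and 0.03. This normalization removes what peaks of the same level share, so medians near 0 in each range follow from it and are no finding. Higher counts also give smaller errors, and how far this or the scaling sets the trend was not tested.

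The brightest strong distal peaks are described for their level, which the rule used. The highest, 65097 bp downstream of the start of the zinc finger gene Zfp958 (chr8:4677680-4678854, between genes), stood at 332, 303 and 272 CPM in wildtype and 249, 227 and 243 CPM in knockout libraries. The knockout libraries were all below the wildtype libraries, with a log2 fold change of -0.34 ± 0.07 (SE) and an adjusted p of 0.0936. It was 0.07 with trended normalization. The next 9, at most 1 for each gene, were nearest to Ssc4d, Wnt7b, Prr14, Zfp239, Foxj2, Hdac4, Dnajc3, Mdm1 and Mir30d. Their log2 fold changes ran from -0.14 at Zfp239 to -0.35 at Dnajc3. With trended normalization 7 of these 9 were above 0, the exceptions being Dnajc3 (-0.03) and Mir30d (-0.01). The peaks named for Wnt7b and Hdac4 are those whose RefSeq start stretches are printed above. At Mdm1 (38347 bp upstream of its start) wildtype libraries 1 and 2 stood at 172 and 169 CPM, wildtype library 3 at 102, and the knockout libraries at 118, 121 and 123.

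The strong distal peak with the smallest p lay 13991 bp upstream of Btg2 (chr1:134092845-134093446, between genes), a gene that restrains cell division. It stood at 111.3, 110.8 and 100.4 CPM in wildtype and 74.5, 76.2 and 69.4 CPM in knockout libraries. All 3 wildtype libraries were above all 3 knockout libraries. The log2 fold change was -0.55 ± 0.08 (SE) with an adjusted p of 0.0582, and it was -0.59 (0.000178) without wildtype library 3 and -0.27 (0.877) with trended normalization. The peak 6331 bp downstream of the start of Dctpp1, which encodes a nucleotide pyrophosphatase, lay in an exon of Zfp771. It stood at 92.8, 89.3 and 95.7 CPM against 63.3, 68.5 and 61.2 CPM. Again no knockout library reached the lowest wildtype library, and the log2 fold change was -0.52 ± 0.08 (SE).

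Pcgf5, a PRC1 subunit gene of the same family as Pcgf2, was nearest to an intronic peak 30663 bp into the gene (chr19:36409457-36410003). This peak also overlapped a RefSeq start window of Pcgf5. It stood at 94.4, 82.3 and 85.5 CPM in wildtype and 64.6, 61.4 and 63.0 CPM in knockout libraries. The groups did not overlap, with a log2 fold change of -0.47 ± 0.08 (SE) and an adjusted p of 0.0606. Leaving out wildtype library 3 gave -0.48 (0.00146), and with trended normalization -0.21 (0.877). Only 4 strong distal peaks were nearest to a gene of the PRC1 list, at Bcorl1, Pcgf5, Phc2 and Rybp, and none to a gene of the PRC2 list.

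A peak 8378 bp upstream of Mirlet7a-1, which encodes a let-7 microRNA, stood at 135.9, 134.4 and 124.2 CPM in wildtype and 100.2, 100.7 and 96.5 CPM in knockout libraries. Its groups did not overlap (log2 fold change -0.41 ± 0.07 (SE), adjusted p = 0.0606). The other 4 of the 8 lower peaks with the smallest p, at most 1 for each gene, lay near Ccne1 (cyclin E1, 22419 bp, -0.40), 1810026B05Rik (-60160 bp, -0.47), Osgin1 (-13177 bp, -0.62) and Mrps27 (a mitochondrial ribosome subunit, 8537 bp, -0.40). Here the first value is the distance from the start site, negative when upstream, and the second the log2 fold change. Their adjusted p ran from 0.0606 to 0.0629, and the groups did not overlap at any of the 4. The 8 were chosen by their p in these same libraries, which largely fixes that their groups are separate. All 8 passed without wildtype library 3, and with trended normalization all 8 had an adjusted p of at least 0.877 with the same direction.

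Peaks higher in knockout were fewer and weaker in level. The one with the smallest p lay 13068 bp upstream of Parp16, which encodes an ADP-ribosyltransferase of the endoplasmic reticulum. It stood at 15.1, 16.5 and 19.8 CPM in wildtype and 34.01, 28.2 and 25.3 CPM in knockout libraries. Every knockout library was above every wildtype library, and the log2 fold change was 0.77 ± 0.17 (SE) with an adjusted p of 0.102. It was 0.89 (0.000818) without wildtype library 3. The next 3 lay near Slfn14 (14948 bp, log2 fold change 0.65, adjusted p = 0.235), Kif2c (-7606 bp, 0.53, adjusted p = 0.274) and Kit (155887 bp, 0.64, adjusted p = 0.288). Rapgef2, Tex14, Arl4d and Zmiz1 complete the 8, with log2 fold changes from 0.42 to 0.76. The groups overlapped only at Arl4d, and the choice by p largely fixes this too.

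**Figure D3:**
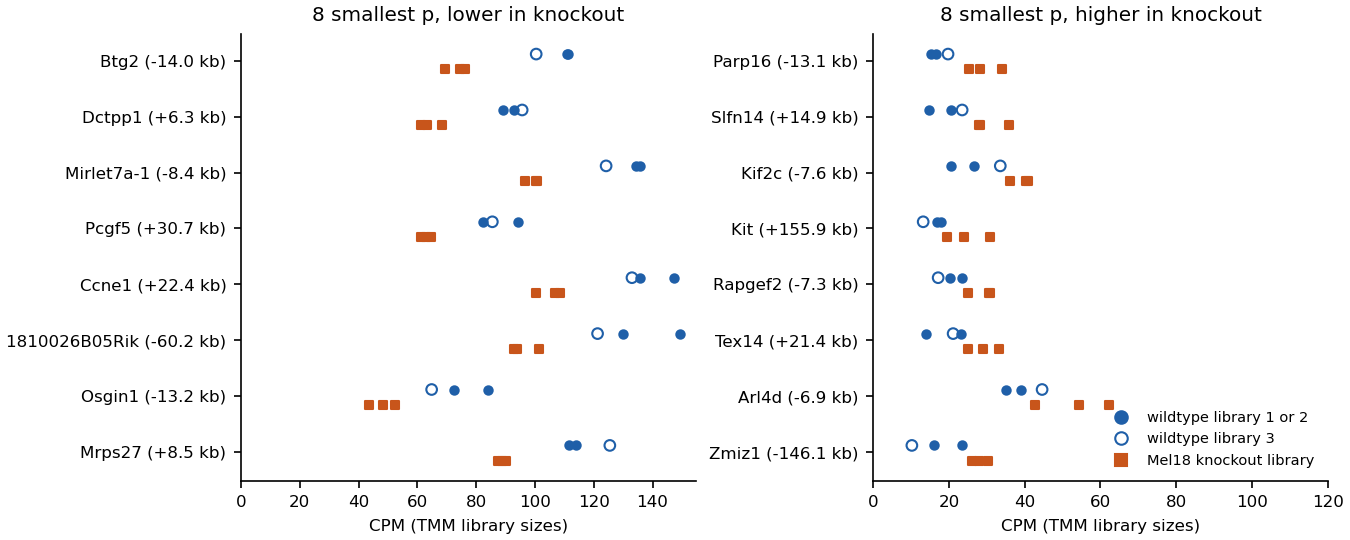
CPM in each library at the 8 strong distal peaks lower in knockout (left) and the 8 higher in knockout (right) with the smallest p, with filled circles for wildtype libraries 1 and 2, open circles for wildtype library 3 and squares for knockout libraries, and the distance from the named gene's start in kb. None passed an adjusted p of 0.05. The lower peaks lie at 43.7 to 149 CPM and the higher ones at 10.2 to 62.1 CPM.

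Of 20 regulators of blood cell identity with well known distal enhancers, 10 were nearest to a strong distal peak, with 13 peaks in all. These were Cebpe, Erg, Etv6, Fli1, Gfi1, Ikzf1, Kit, Lyl1 and Meis1 with 1 each and Runx1 with 4. None was nearest to Spi1, Cebpa, Gata2, Lmo2, Tal1, Gfi1b, Irf8, Myb, Hlf or Mecom. Peaks around these genes that lay nearest to the start of a neighbouring gene are not counted here. At an unadjusted p under 0.05 only Kit was above and only Runx1 (24282 bp) below wildtype (7.69% each, against 3.10% and 5.97% of all peaks), and none passed. The median log2 fold change was -0.07, and -0.17 without wildtype library 3.

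Kit encodes the receptor for stem cell factor. Its peak, 155887 bp downstream of the start (chr5:75730568-75731188), stood at 16.7, 18.0 and 13.2 CPM in wildtype and 30.8, 24.1 and 19.5 CPM in knockout libraries. The knockout libraries were all higher, but they also spread over a wide range (log2 fold change 0.64 ± 0.20 (SE)). Leaving out wildtype library 3 gave 0.52 with an adjusted p of 0.0999.

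Runx1 is a transcription factor needed for the emergence of blood stem cells. Its intronic peak 24282 bp downstream of the start stood at 34.4, 32.3 and 42.1 CPM in wildtype and 34.1, 27.6 and 25.4 CPM in knockout libraries, so the groups overlapped (-0.32 ± 0.15 (SE), adjusted p = 0.548). The peak at 76164 bp stood at 46.7, 45.9 and 23.3 CPM against 32.4, 39.9 and 36.7 CPM. Wildtype library 3 was the lowest and the other wildtype libraries the highest there. The peaks at -41374 bp and -18382 bp had log2 fold changes of -0.08 and 0.00. The 4 peaks of this gene thus did not share a pattern across libraries.

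The same place of wildtype library 3 was seen at intronic peaks nearest to Erg, Etv6, Fli1, Gfi1, Ikzf1 and Meis1, all transcription factor genes of stem and progenitor cells. The Gfi1 peak lay in an intron of the neighbouring gene Evi5, the others in the named gene. The Erg peak (5413 bp upstream of the start) stood at 29.1, 33.4 and 14.1 CPM in wildtype and 27.4, 26.9 and 31.3 CPM in knockout libraries. The Ikzf1 peak (40151 bp) stood at 38.2, 46.2 and 19.8 CPM against 42.1, 37.3 and 36.5 CPM. At each of these 6, wildtype library 3 was the lowest of all libraries. With it the log2 fold changes ran from -0.23 at Etv6 to 0.18 at Gfi1, and without it from -0.48 at Etv6 (adjusted p = 0.0264) to -0.07 at Gfi1. Cebpe, a regulator of granulocyte maturation, was the opposite, with 26.6, 34.5 and 43.3 CPM in wildtype and 39.4, 28.4 and 23.4 CPM in knockout libraries.

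**Figure D4:**
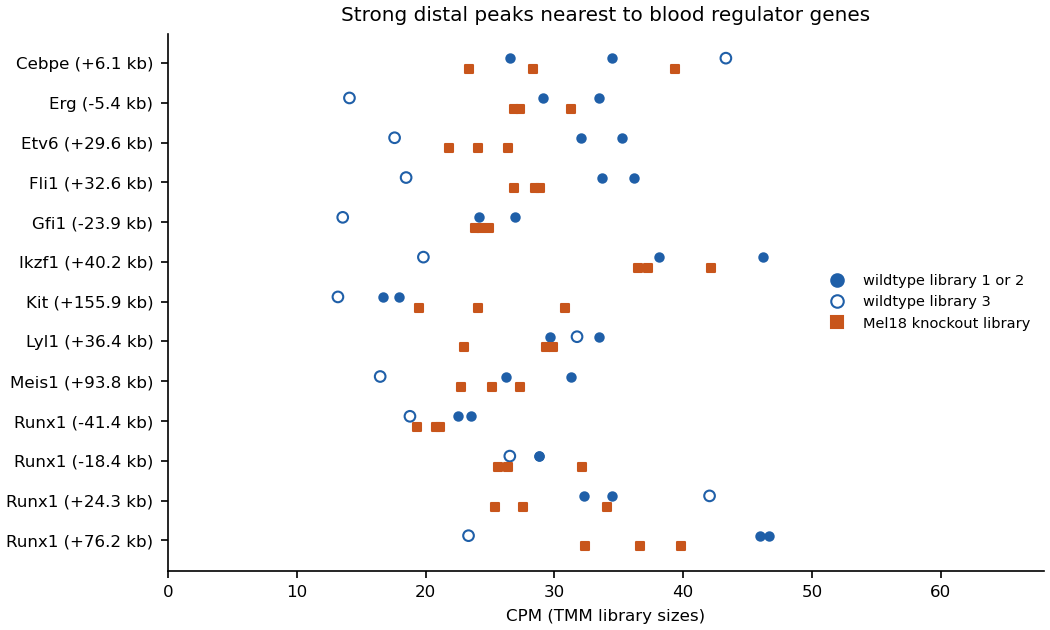
CPM in each library at the 13 strong distal peaks nearest to blood regulator genes, with filled circles for wildtype libraries 1 and 2, open circles for wildtype library 3, squares for knockout libraries and the distance from the start site in kb. Wildtype library 3 is the lowest of all at Erg, Etv6, Fli1, Gfi1, Ikzf1 and Meis1, at 13.6 to 19.8 CPM. It is also the lowest at Kit and at Runx1 (-41374 and 76164 bp), and the highest at Cebpe and at Runx1 (24282 bp).

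Immediate early genes, which are switched on within minutes of a stimulus and include the AP-1 factors Fos and Jun, were nearest to 30 strong distal peaks at 12 of 23 genes. Of these, 6 (20%) were below and 0 above wildtype at an unadjusted p under 0.05, against 12.6% below among all strong distal peaks and 5.97% among all peaks. None passed, and the median log2 fold change was -0.14, near the -0.11 of all strong distal peaks. Levels were not matched in these shares. Among all strong distal peaks the lower share rose from 4.89% at 20 to 25 CPM to 24.3% at 40 to 60 CPM. Jun had 5 peaks, Btg2 and Atf3 had 4 each. A peak 20382 bp upstream of Nr4a1, which encodes an orphan nuclear receptor, stood at 118.9, 110.4 and 91.3 CPM in wildtype and 80.2, 85.2 and 77.3 CPM in knockout libraries. No knockout library reached the wildtype range (-0.40 ± 0.10 (SE), adjusted p = 0.136). The bright peak 18568 bp upstream of Fos stood at 124, 123 and 114 CPM against 111, 119 and 108 CPM, with overlapping groups. With wildtype library 3 left out, 11 of the 30 (36.7%) were lower at an adjusted p under 0.05, against 17.5% of all strong distal peaks and 2.45% of all peaks.

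The other lists held few strong distal peaks, and none passed. Their counts at an unadjusted p under 0.05 stand against 3.10% of all peaks above and 5.97% below wildtype, and 0.672% and 12.6% of strong distal peaks. Stem cell genes had 15 (1 above and 3 below wildtype at an unadjusted p under 0.05, median -0.08). Cell cycle and p53 genes had 8 (0 and 0, median 0.01), T and NK cell genes 6 (0 and 1), and myeloid genes 5 (0 and 0, median -0.19). Interferon response genes had 4 (0 and 1). Megakaryocyte genes and macrophage and dendritic cell genes had 4 each, with none at an unadjusted p under 0.05. Erythroid genes and stromal and endothelial genes had 2 each, with none, and B cell genes had 1, at Bank1. Without wildtype library 3 the medians became -0.19 for stem cell, -0.07 for cell cycle and p53, -0.03 for T and NK cell and -0.25 for myeloid genes. In that fit 2 of the 15 stem cell peaks and 1 of the 5 myeloid peaks were lower at an adjusted p under 0.05, against 17.5% of all strong distal peaks, and 0 of the cell cycle and T and NK cell peaks.

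Mast cell, basophil and eosinophil genes had 2, both at Hdc, which encodes the enzyme that makes histamine. The peak in an exon 12319 bp downstream of its start stood at 90.0, 73.6 and 35.0 CPM in wildtype and 41.8, 42.6 and 41.7 CPM in knockout libraries. The knockout libraries lay close together, and wildtype library 3 was below all of them while the other wildtype libraries were far above. With all libraries the log2 fold change was -0.65 ± 0.26 (SE, adjusted p = 0.482). Without wildtype library 3 it was -0.95 with an adjusted p of 1.1e-05, among the smallest of all strong distal peaks in that fit. Peaks of the whole list summed to 676, 708 and 539 CPM in wildtype and 604, 634 and 649 CPM in knockout libraries. The part of these cells in the difference was not tested.

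Other peaks called lower only when wildtype library 3 was left out were chosen after their values were seen. A peak 41364 bp downstream of the start of Ube2v1 (a ubiquitin-conjugating enzyme variant) stood at 45.6, 49.1 and 10.4 CPM in wildtype and 23.2, 26.9 and 26.5 CPM in knockout libraries. A pair of intronic peaks of Prkcb, which encodes a protein kinase C, behaved alike. The one at 126499 bp stood at 34.1, 35.9 and 10.5 CPM against 14.1, 19.5 and 16.3 CPM. The one at 113150 bp stood at 35.2, 32.5 and 10.5 CPM against 13.3, 18.7 and 19.7 CPM. At all 3 the knockout libraries lay between wildtype library 3 and the other wildtype libraries. The peak furthest below the rest in wildtype library 3 lay 11903 bp upstream of Stx11, which encodes a syntaxin of cytotoxic cells, at 31.3, 29.0 and 5.29 CPM in wildtype and 18.8, 21.2 and 20.6 CPM in knockout libraries. The 6 called higher without wildtype library 3 were near Parp16, Slfn14, Kif2c, Mreg, Arl4d and Tex14 (16025 bp).

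A second group of strong distal peaks was high in wildtype library 3, and it too was chosen after its values were seen. The peak 19324 bp downstream of the start of Mpg (chr11:32245653-32246004) lies in an intron of Nprl3, the gene whose introns hold the known alpha-globin enhancers. It stood at 10.01, 19.5 and 42.3 CPM in wildtype and 23.7, 17.2 and 10.03 CPM in knockout libraries. Values within each genotype thus differed more than the genotype means. A total of 46 strong distal peaks (1.82%), this one included, had a Pearson r of at least 0.9 with it over the 6 libraries and a range of more than 1 log2 unit. The share was 1.84% of all peaks and 0.147% of strong promoter peaks. All 46 were highest in wildtype library 3 among the 6 libraries and highest in library 1 among the knockout libraries, which the choice largely fixes. None differed between genotypes at an unadjusted p under 0.05, and their median log2 fold change was -0.29.

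Several of the 46 lay at genes of red blood cells. The peak 7909 bp upstream of the embryonic beta-globin gene Hbb-y stood at 19.8, 23.0 and 42.9 CPM in wildtype and 25.96, 20.9 and 15.9 CPM in knockout libraries. An intronic peak of Zfpm1, which encodes the GATA1 partner FOG1 and for which the nearest start in the deposited annotation was that of Trhr2, stood at 11.8, 15.2 and 36.8 CPM against 31.6, 19.9 and 12.5 CPM. Both had the same order of the wildtype libraries. Others lay near Kcnn4, Ranbp10, Rbm38, Tfdp2, Trak2 and Pdzk1ip1. These libraries also differed in the summed CPM of erythroid genes given above, whose part in the pattern was not tested.

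**Figure D5:**
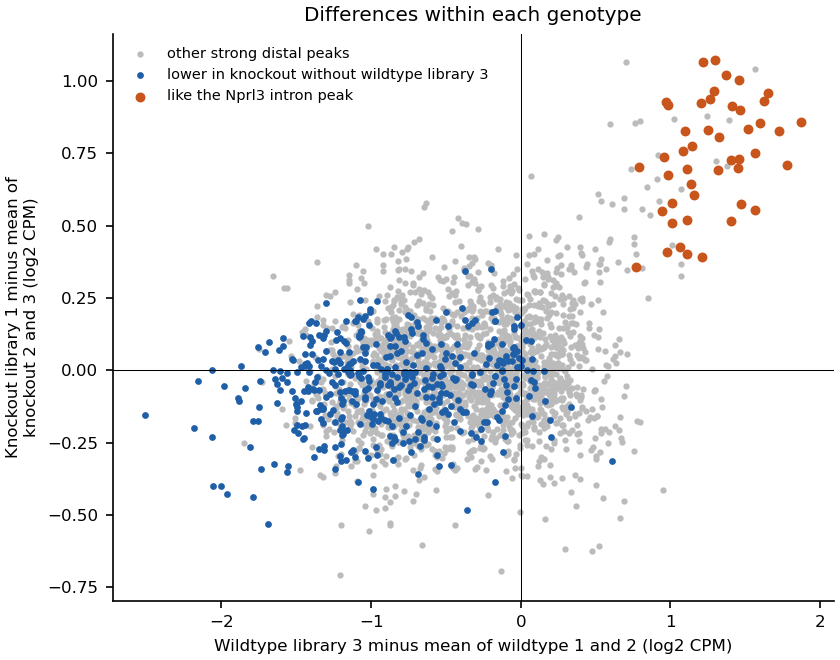
Each point is a strong distal peak, placed by wildtype library 3 minus the mean of wildtype libraries 1 and 2 (horizontal) and knockout library 1 minus the mean of knockout libraries 2 and 3 (vertical), in log2 CPM, with the 46 peaks like the Nprl3 intron peak in orange and the 442 called lower without wildtype library 3 in blue. The orange peaks lie at the upper right by choice, and most blue peaks lie left of 0, where wildtype library 3 is below the other wildtype libraries.

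Strong distal peaks that overlapped a RefSeq start window differed in level by library from the rest. The 159 had a median log2 fold change of -0.16, against -0.11 for the 2289 assessed without one, and 42 (26.4%) against 266 (11.6%) were lower at an unadjusted p under 0.05. The order turned without wildtype library 3, with medians of -0.17 and -0.21. The median of wildtype library 3 minus the other 5 libraries was 0.12 at the 159 and -0.32 at the rest. The 159 were also brighter, with a median level of 35.2 CPM against 27.4 CPM.

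By position, the median log2 fold change was -0.10 at peaks in introns, -0.16 in exons and -0.11 between genes, and upstream and downstream peaks stood at -0.10 and -0.12. These medians were -0.22, -0.22, -0.20, -0.19 and -0.22 without wildtype library 3. Wildtype library 3 was below the other 5 libraries by a median of -0.39 at intronic, -0.13 at exonic and -0.22 at intergenic peaks. By distance it was -0.11 at 5000 to 10000 bp and -0.38 at 100000 to 200000 bp. The strong distal peaks nearest to a start were thus the least affected by this library.

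At its edges the rule cut through a continuous range. The peaks just inside the level bound stood at 20.002 CPM (near Cldn1) and 20.019 CPM (near 4933402J10Rik), and those just outside at 19.997 CPM (near Mir7661) and 19.995 CPM (near Gm10190). The nearest inside the lower distance bound lay at 5001 bp (Zfp65) and 5002 bp (2310001H17Rik), and those outside at -4996 bp (Gatad2a) and -4993 bp (Gnai2). At the upper bound the peaks inside lay at -199714 bp (Lpp) and 198110 bp (Chd7), and those outside at -205947 bp (Rreb1) and -209041 bp (Tgfbr2).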

How the data were processed

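ATAC-seq libraries of 3 wildtype and 3 Mel18 knockout mice were compared, grouped by the labelled genotype. The submitters' processing notes list mm10 as the build and, without roles, MACS2 2.1.1, Bowtie2 1.2.2, Trimmomatic 0.40, MultiQC 0.11.5, Picard and FastQC. The read counter, any Tn5 shift, duplicate removal and the making of 1 peak set have no statement in the sources used here and can move counts. Per the file headers, the deposited table holds raw, unscaled read counts in 109859 peaks, and for each peak the authors' p-value, log2 fold change and log2 CPM. A further 12 columns of single libraries were left aside. Library numbers in the table restart in each genotype while the labels count mice from 1 to 6, so only the group of a library is known. The labels give separate mice.

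Tests used edgeR 4.0.16 in R 4.3.3 (quasi-likelihood, robust, TMM, filterByExpr, which removed 0 peaks), p adjusted by Benjamini-Hochberg for the whole table, called under 0.05. CPM of single libraries uses TMM library sizes. Mean CPM over the 6 libraries uses total peak reads, in the rule, its edges, the level ranges and the median levels. A standard error is the absolute log2 fold change over the root of the F statistic. Log2 CPM used a prior count of 2, and trended normalization a loess span of 0.3. A pair of planned permutation tests, of the read share and of the distal minus promoter level, is not given, because 3 against 3 cannot go below p = 0.1. Alternatives were the Wald test of DESeq2 1.42.0, edgeR with DESeq2's size factors, voom in limma 3.58.1, library sizes alone, trended normalization, no filter, other bounds of the rule, and each library left out. The edgeR step was tested on simulated data.

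The peaks and gene lists were chosen with earlier results of these data known. Named are the 10 brightest, the 8 with the smallest p each way, those at 20 blood regulators, the genes with most peaks, the edges of the rule and the smallest p of each list. Others were chosen after their values were seen. Motifs were searched in RefSeq start windows only. Values of some single peaks are not reported here.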

Additional observations from a re-analysis of the deposited data

How the results depend on the processing

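Lower calls at an adjusted p under 0.05, 0 with all libraries, came to 19 with DESeq2 size factors in edgeR, 10 with limma-voom, 0 to 442 when 1 library was left out (28 without wildtype library 2, 442 without wildtype library 3) and 28 without wildtype library 3 with trended normalization. Higher calls came to 0 to 6 when 1 library was left out (6 without wildtype library 3), and to 7 with trended normalization as well. At an unadjusted p under 0.05, the 319 lower became 101 with library sizes alone, 47 with trended normalization, 179 with DESeq2's Wald test and 185 to 1067 when 1 library was left out. These are 4%, 1.86%, 7.08% and 7.32% to 42.2% of the strong distal peaks. Over all peaks the lower shares were 2.72%, 3.28%, 4.26% and 4.09% to 8.62%. With library sizes alone, trended normalization and the Wald test, the 17 higher became 73, 100 and 10. The shares were 2.89%, 3.96% and 0.396%, against 6.52%, 2.34% and 1.91% of all peaks. They became 32 with limma-voom (1.27%, against 3.49%) and 6 to 74 when 1 library was left out (0.237% to 2.93%, against 1.62% to 5.68%). Without wildtype library 3 and with trended normalization they became 186 (7.36%, against 5.24%). At a bound of 15 and 30 CPM, 41 of 4443 and 4 of 1029 peaks were higher, against 3.10% of all peaks. The cause of these shifts was not tested. The fit without wildtype library 3 and with trended normalization was added after the data were seen. No paired analysis was possible because the table's library numbers and the labels' mouse numbers are not the same and carry no pairing.

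Of 600 values (48 named peaks, 13 settings, without 24 peaks to which DESeq2's Wald test gave no adjusted p), 502 kept their direction and side of the threshold, 58 passed and 40, at 18 peaks, turned direction. With trended normalization the log2 fold change became 0.071 at Zfp958, 0.11 at Ssc4d, 0.035 at Wnt7b, 0.10 at Prr14, 0.20 at Zfp239, 0.060 at Foxj2, 0.15 at Hdac4, 0.036 at Mdm1, 0.016 and 0.091 at Runx1 (-41374 and 76164 bp), 0.080 at Fli1 and 0.073 at Ccnd3. Without wildtype library 3 as well it was 0.0054, 0.024, 0.056, 0.21, 0.058 and 0.11 at Ssc4d, Wnt7b, Prr14, Zfp239, Foxj2 and Hdac4, 0.17 at Cebpe, -0.035 at Meis1 and 0.11 at Ccnd3. Library sizes alone gave 0.042 and 0.038 at these Runx1 peaks and 0.059 at Fli1, and limma-voom 0.018 at Fli1. With 1 library left out the values ran from -0.43 to 0.00026 at Cebpe, -0.065 to 0.36 at Gfi1, -0.12 to 0.40 at Ikzf1, -0.13 to 0.39 at Erg, -0.35 to 0.045 at Runx1 (76164 bp), -0.31 to 0.082 at Fli1, -0.20 to 0.22 at Meis1 and -0.11 to 0.063 at Runx1 (-18382 bp), the last being -0.0169 with DESeq2's size factors in edgeR.

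With 3 libraries a group, small changes at single peaks could not be resolved (median standard error 0.17 log2 units).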

Other observations

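Strong distal peaks came in groups at some genes. Of 1931 genes, 16 were nearest to 5 or more, and Cxcr4, Hdac4 and Irf2bpl to 6 each. Cxcr4 encodes the receptor for the chemokine Cxcl12, which holds stem cells in the marrow. Its 6 peaks lay 15980 to 194932 bp from its start and had log2 fold changes from -0.28 to 0.20, with 0 at an unadjusted p under 0.05 and, without wildtype library 3, 1 lower at an adjusted p under 0.05. The brightest, 120746 bp upstream, stood at 77.5, 81.4 and 36.5 CPM in wildtype and 46.8, 52.2 and 61.6 CPM in knockout libraries. The 22820 bp upstream peak stood at 44.2, 48.3 and 57.3 CPM against 52.1, 52.1 and 54.9 CPM. Wildtype library 3 was thus the lowest of the 6 libraries at the first and the highest at the second.

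Hdac4, a histone deacetylase gene, had 6 peaks with log2 fold changes from -0.40 to 0.00. The peak 32035 bp upstream, at the RefSeq start shown in the report, was the only 1 of them at an unadjusted p under 0.05 (139.5, 154.7 and 134.4 CPM against 128.8, 130.2 and 121.1 CPM). The intronic peak at 99306 bp stood at 24.8, 33.9 and 6.93 CPM in wildtype and 18.1, 20.1 and 22.6 CPM in knockout libraries. Irf2bpl had 6 peaks with log2 fold changes from -0.31 to -0.05 and none at an unadjusted p under 0.05. Without wildtype library 3, 3 of the Hdac4 and 1 of the Irf2bpl peaks were lower at an adjusted p under 0.05. Asprv1, which encodes a skin protease, was nearest to 5, all below 0 (-0.54 to -0.32), with 4 lower at an adjusted p under 0.05 without wildtype library 3. In that fit 17.5% of all strong distal peaks were called lower.

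The start nearest to 122 strong distal peaks (4.83%, against 3.24% of all peaks) was that of a microRNA gene. At an unadjusted p under 0.05, 24 of them were lower in knockout (19.7%, against 12.6% of all strong distal peaks and 5.97% of all peaks) and 0 higher, and none passed. Besides Mirlet7a-1 and Mir30d, the peak 9920 bp upstream of Mir23a stood at 113.5, 117.4 and 110.7 CPM in wildtype and 93.2, 91.8 and 90.4 CPM in knockout libraries (log2 fold change -0.31, adjusted p = 0.102). The peak 8542 bp upstream of Mir139 stood at 36.1, 23.1 and 36.5 CPM against 18.5, 21.8 and 18.8 CPM (-0.69, adjusted p = 0.176). The groups did not overlap at either. Without wildtype library 3, 22 of the 122 (18.0%) were lower at an adjusted p under 0.05, against 17.5% of all strong distal peaks. Levels were not matched in these shares.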
